A study of Mus musculus with 4 samples.

Results

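Genes whose products build or steer the splicing machinery were examined for m6A in the spinal cord of mice with or without nerve injury. They were chosen by gene name in 6 families: Srsf, Hnrnp, Sf3a and Sf3b, Snrp and Snrnp, Prpf, and Rbm. Names had to have a digit after Srsf, Sf3a, Sf3b, Prpf and Rbm, and 4 genes of the m6A reader and writer machinery (Hnrnpa2b1, Hnrnpc, Rbm15 and Rbm15b) were left out. This gave 90 genes of the 13558 named in the 3 deposited peak tables. They held 207 of 33556 peaks in the CCI list, 210 of 34406 in the sham list and 45 of 4812 rows in the table of differential peaks.

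The study compared spinal cord from C57BL/6J mice of 6 to 8 weeks, male per the methods of the paper. In the CCI (chronic constriction injury) group, loose silk ligatures were placed around the sciatic nerve. The sham group had the same surgery without ligatures, and both groups were taken on day 7 by MeRIP-seq, in which fragments of polyadenylated RNA are pulled down with an antibody against m6A. Each group had 1 immunoprecipitated (IP) library and 1 input library, and the number of mice behind a library is not given in the methods. With 1 library pair per group no difference between CCI and sham has a replicate check, so values are given side by side without a test. Fold enrichment below is the deposited ratio of IP over input reads in a peak, which is not a measure of how much transcript was there. All 15 marker genes that were looked up, of neurons, motor neurons, oligodendrocytes, astrocytes and microglia and with 2 Hox genes of trunk position (Hoxc8 and Hoxa7), had a peak in both lists.

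Splicing removes introns in the spliceosome, which is assembled from small nuclear ribonucleoproteins (snRNPs) and many further proteins. SR proteins mostly bind exons and favour their use, hnRNP proteins coat nascent transcripts and often act against them, and the SF3A and SF3B complexes hold the U2 snRNP at the branch site. m6A is a methyl mark on adenosines of mRNA that is commonly found near stop codons, in long exons and in 3′-UTRs, and it is read by proteins that act on splicing, stability and translation. Many genes of splicing factors are themselves under control by alternative exons that can send their transcripts to decay.

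In the RefSeq annotation of GRCm38.p6, 107 protein-coding genes carry a name of these families, and all 90 genes with a peak were among them. Every Srsf gene (11 of 11) and every Prpf gene (13 of 13) had a row in the tables, as did 18 of 19 Hnrnp genes and 8 of 9 Sf3 genes. The Snrp and Snrnp family had the lowest share, 12 of 19, followed by Rbm with 28 of 36. No share over all protein-coding genes is set beside these counts, so they cannot be compared with the genome at large. Of the 17 names with no row in the tables, 7 were snRNP proteins, among them the Sm core proteins Snrpb, Snrpd3 and Snrpf and the neuronally expressed Snrpn.

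Many peaks of these genes lay over the start of an annotated transcript, which was not always the first start of the gene. Hnrnpu peaks annotated in exon 11 of 17 and in the 3′-UTR, for example, counted as lying over a start. Of 207 CCI peaks, 44 (21.3%, 95% Wilson interval 16.2 to 27.3) had a distance of 0 to the nearest transcript start in the authors' annotation, and of 210 sham peaks 51 (24.3%, 19.0 to 30.5). Over all peaks the shares were 15.4% and 16.5%, over a list of further genes of splicing without the family names 21.3% and 23.2%, and over the genes of translation factors 24.1% and 21.4%. RefSeq gave 116 start windows for genes with a name of the 6 families, 26 of which lay under a peak in at least 1 list (19 in both, 2 under a CCI peak only and 5 under a sham peak only). GGAC, the most used form of the m6A consensus, was looked for on the transcribed strand in the first 50 bases. It stood in 5 of the 26 windows under a peak (19.2%, 8.51 to 37.9), in 17 of 90 under none (18.9%) and in 18.9% of all 32851 RefSeq windows. The reverse complement GTCC stood in 7 of the 26 and in 17.4% of all. The windows under a peak thus held GGAC at about the share of all windows.

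The first set shows the 4 starts where GGAC lay inside the peak itself, in RefSeq sequence of GRCm38.p6, 5′ to 3′ on the gene's strand, with GGAC in capitals. Rbm14 (minus strand, chr19:4811585-4811614) and Hnrnpu (minus strand, chr1:178337768-178337797) had that peak in both lists. Rbm17 (minus strand, chr2:11603161-11603190) and Rbm33 (plus strand, chr5:28317209-28317238) had it in the sham list alone.
Rbm14: tctcggtcgccagccattcctgtggaGGAC
Hnrnpu: cgcccctgcgagaGGACgttgcgtgctcgc
Rbm17: tcggcgctgcggcGGACtccggcggtgggc
Rbm33: cggaggcgagggtccgctgcGGACcgcgac

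The second set gives the first 30 transcribed bases of 4 starts that were covered by a peak in both lists and held no GGAC in the first 50 bases. Hnrnpa0 (minus strand, chr13:58128527-58128556) and Srsf9 (plus strand, chr5:115327177-115327206) are shown for the highest fold enrichments of a peak over these first 50 bases. Hnrnpd (minus strand, chr5:99978909-99978938) and Rbm26 (minus strand, chr14:105177285-105177314) are shown for the highest ratios of CCI over sham at a start among the windows covered in full in both lists.
Hnrnpa0: ctctttgtgtggtgtcccgataggggagcg
Srsf9: gcggctgagcgcctcgggagcccgcggggg
Hnrnpd: ccattttaggtggtccgcggcggcgccatt
Rbm26: agatttaccggcagccatcttcttgggggt

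At the start of Hnrnpa0 fold enrichment was 121 in CCI and 83.7 in sham, and at that of Srsf9 it was 52.1 and 61.6. At Hnrnpd it was 28.6 and 6.23, and at Rbm26 19.8 and 6.10. Rbm14 had 13.8 and 20.5, and Hnrnpu 2.95 and 1.98. The sham value was the higher at Srsf9 and Rbm14, and the CCI value at the other 4. The peaks at the start of Hnrnpa0 were of unlike length, 269 bases in CCI and 1458 in sham. That sham peak was the best partner of another CCI peak of Hnrnpa0, at 70.2, which was lower than sham.

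Along the transcript, the peaks of splicing factor genes were shared about evenly between 3′-UTRs and exons. In CCI, the 3′-UTR held 85 of 207 (41.1%, 34.6 to 47.9), other exonic sequence as many, and the 5′-UTR 37 (17.9%, 13.3 to 23.7). In sham the 3′-UTR held 79 of 210 (37.6%, 31.3 to 44.3), exons 89 (42.4%, 35.9 to 49.1) and the 5′-UTR 42 (20.0%). Over all peaks, the 3′-UTR share was 49.8% in CCI and 48.9% in sham, above the upper ends of these intervals, which cover counting error only. In the further genes of splicing it was 45.9% in CCI and 46.3% in sham. Each peak has 1 region label, also where it spans several exons. The exon share over all peaks was 35.5% in CCI, within the interval of 34.6 to 47.9, and 35.1% in sham. Peaks of 1 gene share their transcript, so these intervals are narrower than the data warrant.

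**Figure D1:**
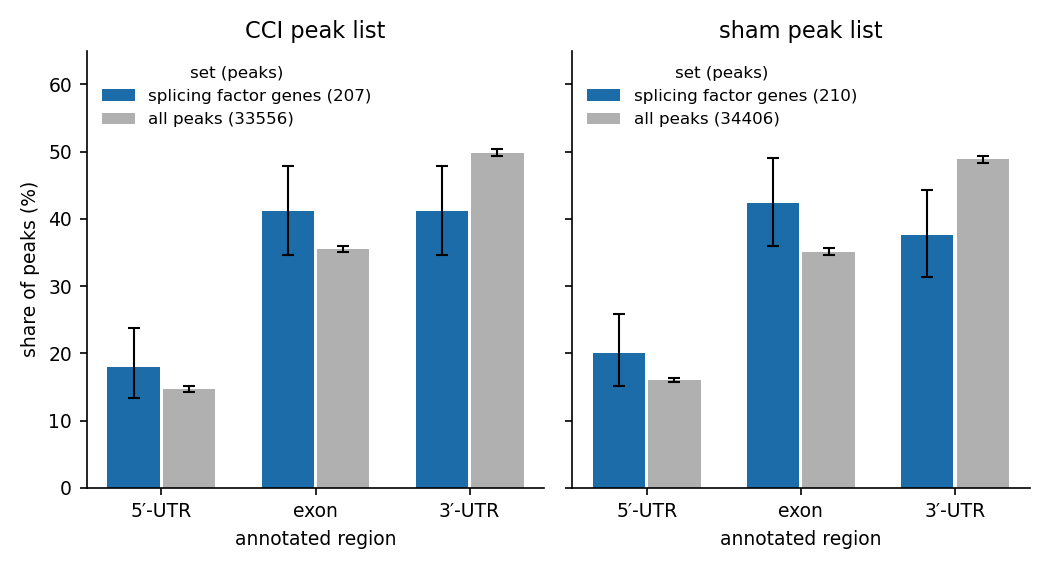
Share of peaks (%) annotated in a 5′-UTR, exon or 3′-UTR for splicing factor genes and for all peaks, in the CCI list on the left and the sham list on the right, with 95% Wilson intervals as bars. The 3′-UTR share of the splicing factor genes was 41.1% and 37.6%, against 49.8% and 48.9% of all peaks.

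The shares by region varied between the families, which had from 17 to 65 CCI peaks each. Even the lowest and highest 3′-UTR shares in CCI had intervals that overlapped, 16.9 to 41.8 in Hnrnp and 38.0 to 70.2 in Prpf. Hnrnp genes had the lowest 3′-UTR share in CCI (27.7%, 13 of 47 peaks) and many peaks in the 5′-UTR (29.8% in CCI and 33.3% in sham). Snrp and Snrnp genes were alike in this, with 28.0% of CCI peaks and 21.7% of sham peaks in the 3′-UTR. Prpf genes had the highest 3′-UTR share, 54.5% (18 of 33) and 56.2% (18 of 32). Srsf, Sf3 and Rbm genes lay between, at 50.0%, 47.1% and 44.6% in CCI. The same measure was 80.4% and 77.2% for the cytosolic ribosomal protein genes and 47.3% and 48.7% for the translation factor genes.

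The median length of exonic sequence in a peak was 211 bases in CCI and 210.5 in sham, against 211 and 239 over all peaks. Peaks that crossed a splice junction made up a larger share than in the lists at large, 87 of 207 (42.0%) in CCI and 84 of 210 (40.0%) in sham, against 24.6% and 25.3%. The shares were 42.1% and 40.7% in the further genes of splicing, and 33.0% and 36.8% in the translation factor genes. Prpf genes had the highest share of such peaks in CCI, 54.5%, and Srsf genes the lowest, 20.0%.

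Median fold enrichment was 5.96 in CCI and 4.65 in sham, against 5.725 and 5.70 over all peaks. By the strongest peak of each gene the order of the lists was turned, with medians of 9.41 in CCI and 11.6 in sham. The range ran from 1.39 to 521 in CCI and from 1.29 to 326 in sham. Fold enrichment of at least 100 was reached by 6 CCI peaks (2.90%, against 1.42% of all) and 4 sham peaks (1.90%, against 1.33%). They lay in Sf3a2, Snrnp70, Rbm33, Hnrnpd and Hnrnpa0.

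Most peaks were found in both groups. A peak with at least 1 exonic base in common was present in sham for 187 of 207 CCI peaks (90.3%, 85.5 to 93.7) and in CCI for 187 of 210 sham peaks (89.0%, 84.1 to 92.6). That left 20 CCI peaks (9.66%) and 23 sham peaks (11.0%) without a partner, against 12.3% of all CCI peaks and 16.1% of all sham peaks. At gene level 84 of 90 had a peak in both lists, against 11761 of all 13558 genes. It was 55 of 59 for the further genes of splicing and 47 of 52 for the translation factor genes. The peaks without a partner were short and weak, with a median of 91 bases in both lists, against 211 for those with a partner. Their median fold enrichments were 3.08 in CCI and 2.80 in sham, against 5.99 and 4.88. Such medians are not given for all peaks without a partner.

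Where 2 peaks of the lists were best partners of one another they were counted as a shared peak, which gave 177 in 85 genes. Of these 107 had the higher fold enrichment in CCI (60.5%, 53.1 to 67.4), 69 in sham and 1 had the same value in both. Over all 27380 shared peaks 51.8% were higher in CCI. The median log2 ratio of CCI over sham was 0.135 (quartiles -0.21 and 0.50), against 0.027 over all shared peaks. A ratio of at least 2-fold was found for 20 shared peaks in the direction of CCI (11.3%, 7.43 to 16.8; 8.59% of all shared peaks) and for 7 in the direction of sham (3.95%, 1.93 to 7.94; 7.25% of all). Most shared peaks of splicing factor genes thus lay within 2-fold of each other in CCI and sham, as did most of all shared peaks. The 1 pair with different names was the Srsf2 peak given below.

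**Figure D2:**
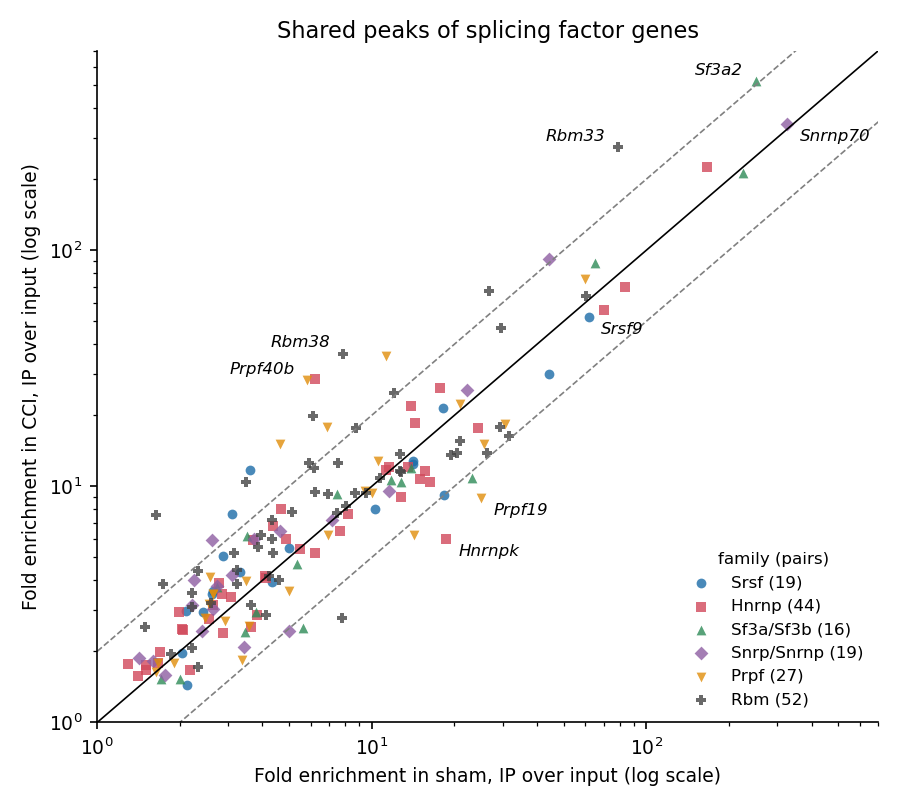
Fold enrichment (IP over input) of the 177 shared peaks in sham on the x axis and CCI on the y axis, both on log scales, with 1 point per shared peak and a colour and shape per family. The solid line marks equal values and the dashed lines a 2-fold ratio, beyond which 20 points lay above and 7 below.

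The borders of a peak were set separately in each list, so that a ratio can compare unlike stretches of a transcript. In 49 of the 177 pairs the borders were the same in both lists. Among these the median log2 ratio was 0.109, with 6 pairs at least 2-fold higher in CCI (12.2%) and 2 at least 2-fold lower (4.08%). Over all 5237 shared peaks with the same borders the median was 0.07, with 7.31% and 4.16%. By region, the median log2 ratio was 0.10 for 73 pairs in 3′-UTRs, 0.20 for 73 in exons and 0.02 for 31 in 5′-UTRs, against 0.06, 0.00 and -0.06 over all shared peaks.

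By family, the highest median log2 ratio was that of the Rbm genes, 0.36 over 52 shared peaks. Of these 36 were higher in CCI and 10 at least 2-fold (19.2%, against 2.27% to 14.8% in the other families). Snrp and Snrnp genes followed at 0.20, with 15 of 19 higher in CCI, of which 8 were peaks of Snrnp70. Without that gene 7 of 11 were higher, with a median of 0.40. Srsf, Hnrnp and Prpf genes stood at 0.14, 0.10 and 0.10. The Sf3 genes were the 1 family with a negative median, -0.17, and 11 of their 16 shared peaks were higher in sham. The interquartile ranges of the 6 families overlapped, from -0.10 to 0.74 in Rbm and from -0.37 to 0.35 in Sf3.

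**Figure D3:**
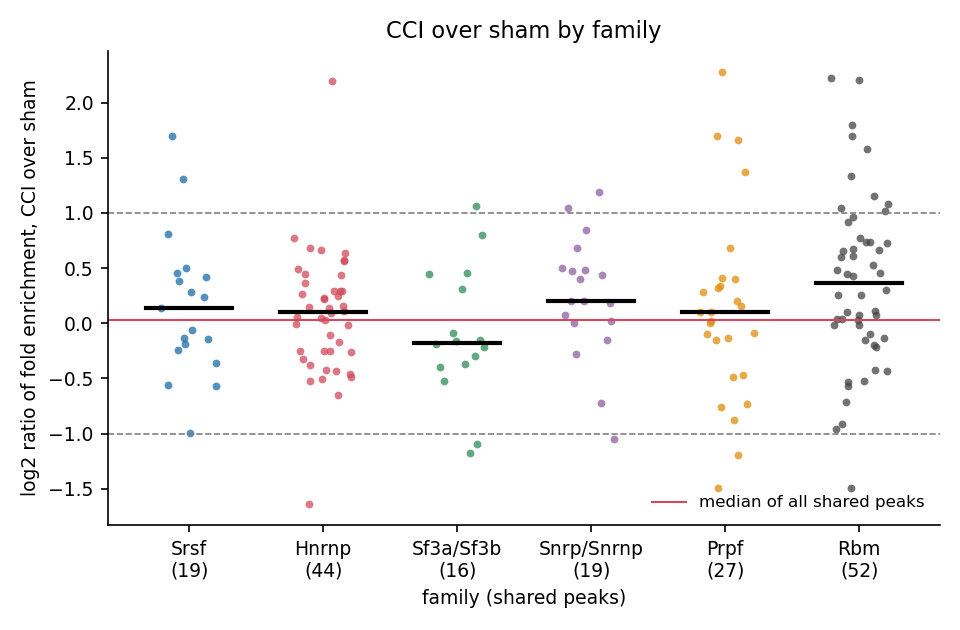
log2 ratio of fold enrichment in CCI over sham (y axis) for each shared peak of the 6 families (x axis, number of shared peaks in brackets), with black bars at the family medians, a red line at the median of all shared peaks and dashed lines at a 2-fold ratio. The family medians ran from -0.17 in Sf3 to 0.36 in Rbm, and the points of each family spread to both sides of 0.

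Within a gene the shared peaks often went in different directions. Of 46 genes with at least 2 shared peaks, 13 had all of them higher in CCI and 6 had all of them lower. In 26 the peaks went in both directions, and 1 held a peak of equal value. These counts have no share over all genes beside them, so they do not set the splicing factor genes apart. Among the 13 genes with at least 4 shared peaks, Snrnp70 (8 of 8) and Rbm4b (4 of 4, a pair of which cover common bases) were higher in CCI throughout and Sf3b2 (0 of 4) was lower throughout. All of the ratios of Snrnp70 and Sf3b2 were below 1.5-fold.

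**Figure D4:**
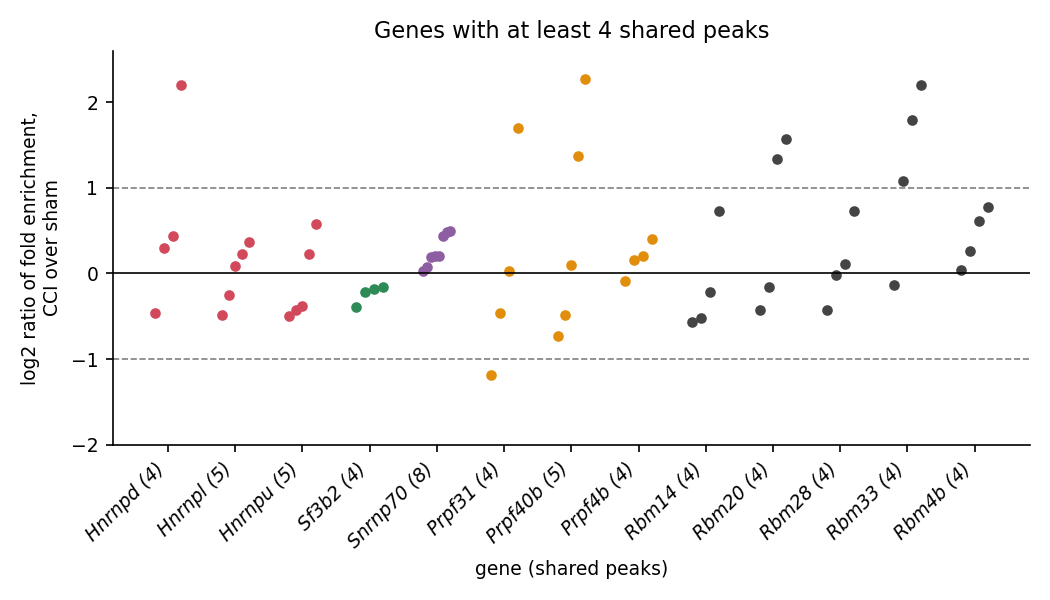
log2 ratio of fold enrichment in CCI over sham (y axis) for every shared peak of the 13 genes with at least 4 shared peaks (x axis, number in brackets), coloured by family, with dashed lines at a 2-fold ratio. All 8 points of Snrnp70 lay above 0 and all 4 of Sf3b2 below it, and those of Rbm33 and Prpf40b ran from below 0 to above 2.

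Srsf genes encode the SR proteins, with an RNA-binding domain and an arginine- and serine-rich tail. Srsf9 and Srsf6 had the strongest peaks of the family, both in the 5′-UTR. Srsf9 had 52.1 in CCI and 61.6 in sham there, and Srsf6 29.9 and 44.2. Srsf11, which had 6 peaks over both lists, as many as Srsf5 and Srsf6, had 21.5 and 18.2 at its strongest, a 3′-UTR peak.

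Srsf4 had 12.8 in CCI and 14.1 in sham in its 3′-UTR, over bases that lie in the span of Gm12992 as well. Srsf12 had 9.20 and 18.3 in a 3′-UTR peak with the same borders in both lists, a log2 ratio of -0.99, just inside the 2-fold limit. Srsf5 had 5.47 and 4.98, in exon 2 of 8. All 3 of the shared peaks of Srsf5 were higher in CCI.

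Srsf1, Srsf2, Srsf3 and Srsf7 had the lowest values of the family at their strongest peaks. Srsf1 had 3.50 in CCI and 2.61 in sham, Srsf3 had 2.97 and 2.10, and Srsf7 had 3.62 and 2.64. Srsf2 had a single peak in CCI, at 1.44, and the sham peak over the same bases carried the name of the overlapping Mfsd11, at 2.12. For 5 of the 11 genes the strongest peak was higher in CCI, for 5 it was higher in sham, and Srsf2 had none of its own in sham.

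Srsf10, which works as a repressor of splicing when dephosphorylated, showed different strongest peaks in the lists. In CCI it had 1 peak, in exon 3 of 7, at 7.67. In sham the same exon had 3.10, and a 5′-UTR peak at 9.30 had no CCI partner. The shared exon peak thus had a log2 ratio of 1.31, with 181 bases in CCI and 121 in sham. The largest ratio of the family was in exon 2 of 5 of Srsf6, where a peak of 61 bases with the same borders in both lists had 11.7 in CCI and 3.60 in sham (log2 ratio 1.70). The 3′-UTR peak of Srsf6 had 3.95 and 4.33, so the 3 shared peaks of this gene went in both directions.

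**Figure D5:**
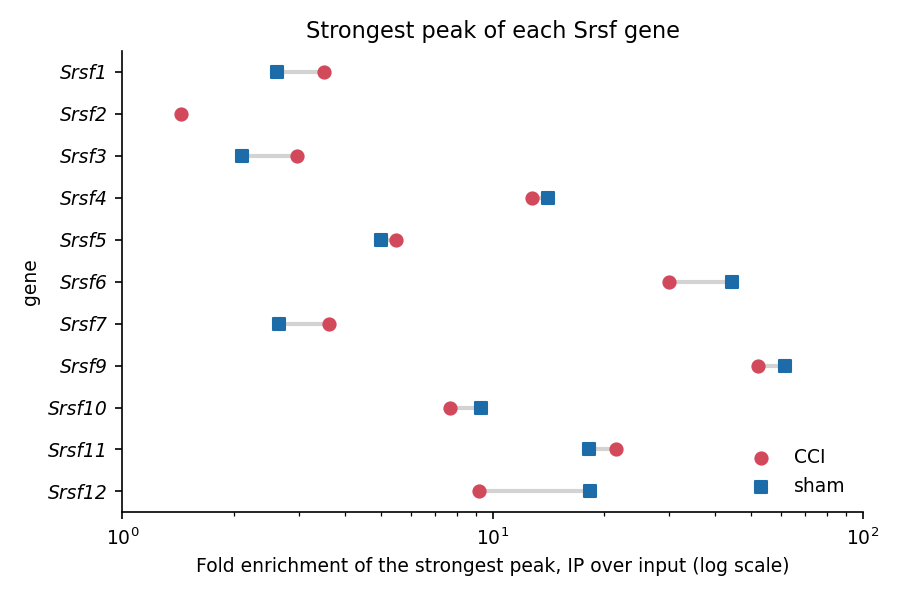
Fold enrichment (IP over input, log scale on the x axis) of the strongest peak of each of the 11 Srsf genes (y axis) in CCI (red circles) and sham (blue squares), joined by a grey line. Srsf9 and Srsf6 stood highest in both lists, and the widest gap was that of Srsf12, at 9.20 in CCI and 18.3 in sham.

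All 18 Hnrnp genes had peaks under their name in both lists, and 46 of 47 CCI peaks had a sham partner. The 3 peaks named for Hnrnpf lay in single-exon transcripts annotated under another gene. In each list 4 peaks of splicing factor genes were annotated under another gene. Hnrnpd, which binds AU-rich elements, held the strongest peak of the family, of 2 exonic blocks in the 5′-UTR, at 226 in CCI and 167 in sham. Next to it on the side of the start lay a peak of 150 bases (chr5:99978789-99978938), the same in both lists, at 28.6 and 6.23 (log2 ratio 2.20). A further peak of this gene, of 390 bases, had 17.7 in CCI and 24.3 in sham, so of 4 shared peaks 3 were higher in CCI.

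Hnrnpa0, a gene of a single exon, had 2 peaks in CCI, at 121 and 70.2, where sham had 1 peak of 1458 bases at 83.7 across both. Hnrnpr had 56.1 in CCI and 70.2 in sham in its 3′-UTR. Hnrnpl, which binds CA repeats, had 10 peaks over both lists, as many as Hnrnpu. Its strongest CCI peak lay in an exon at 18.6, where sham had 14.4, and its strongest sham peak in the 3′-UTR at 15.0, where CCI had 10.7. None of these ratios reached 2-fold.

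Hnrnpk, which binds C-rich sequence, had the lowest ratio of all shared peaks of splicing factor genes. Its 5′-UTR peak had 5.99 in CCI and 18.6 in sham (log2 ratio -1.63), with 211 exonic bases in CCI and 360 in sham. The other Hnrnpk peak, over much the same stretch, had 6.78 in CCI and 4.36 in sham. These peaks overlap the span of Rmi1 as well, and without a stated strand in peak calling the reads of both genes cannot be told apart. The Hnrnpk peak thus rests on different borders in the lists.

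Of the Sf3 genes, Sf3a2 held the strongest peak of any splicing factor gene. This 3′-UTR peak (chr10:80803856-80804357 in CCI) had 521 in CCI, in the top 0.1% of all CCI peaks, and 250 in sham (chr10:80803826-80804387), in the top 0.4%. A second 3′-UTR peak of Sf3a2, of 300 bases and with the same borders in both lists, had 212 in CCI and 225 in sham. The first differed by 1.06 on the log2 scale and the second was nearly the same in both groups. Sf3b5, a small subunit of SF3B, had a 3′-UTR peak at 88.6 and 65.1.

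Sf3b1, the subunit that clamps the branch site, had 1 peak in each list, at its start, at 2.50 in CCI and 5.64 in sham (log2 ratio -1.17), over 61 and 91 bases. Sf3a3 had 10.9 and 23.2 in its 3′-UTR (log2 ratio -1.09). Sf3b2 had the most peaks of the family, 10 over both lists. Its strongest, in the 3′-UTR, had 12 and 13.9, and 2 weak sham peaks, at 1.35 and 1.33, had no CCI partner.

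Among snRNP proteins, Snrnp70, the U1 protein that touches the U1 RNA and many regulators of splicing, had 18 peaks over both lists, the most of all 90 genes. Its strongest lay in the 3′-UTR over 4 exonic blocks and 1320 bases with the same borders, at 343 in CCI and 326 in sham. A peak of 331 bases annotated to exon 8 of 10 had 25.5 and 22.2. The other shared peaks of Snrnp70 had between 1.82 and 6.49 in CCI and between 1.60 and 4.65 in sham. The enrichment of Snrnp70 was thus nearly level between the groups at the strongest peak.

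Snrnp35, a protein of the minor U11 and U12 snRNPs, had a peak of 1018 bases annotated in the 5′-UTR at 91.4 in CCI and 44.4 in sham (log2 ratio 1.04), with the same borders. Snrpd1 and Snrpd2, both of the Sm core, went in opposite directions. Snrpd1 had 5.95 in CCI and 2.61 in sham, over 150 and 60 bases. In Snrpd2 the CCI peak had 2.43 over 239 bases and the sham peak 5.01 over 477 bases. In each of these the wider peak had the higher value.

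Of the Prpf genes, Prpf38b held the strongest peak, in the 3′-UTR over 960 bases with the same borders in both lists, at 75.7 in CCI and 59.9 in sham. Prpf40b, a homologue of a yeast U1 protein, had the most peaks, 7 in CCI and 5 in sham. In exon 4 of 24 a peak of 121 bases (chr15:99304628-99304748), the same in both lists, had 28.1 in CCI and 5.81 in sham. This log2 ratio of 2.27 was the highest of any shared peak of splicing factor genes, at the 99.1 percentile of all shared peaks. A neighbouring peak had 17.8 and 6.88, and the peak at the first start had 18.4 in CCI and 30.6 in sham. A 3′-UTR peak at 20.8 stood in CCI without a sham partner.

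Prpf19, the ubiquitin ligase at the centre of the Prp19 complex, had 8.89 in CCI and 25.0 in sham in a 3′-UTR peak of 181 bases with the same borders (log2 ratio -1.49). Prpf31, a protein of the U4/U6 snRNP, had 2 neighbouring 3′-UTR peaks that went in opposite directions. The peak of 778 bases, with the same borders in both lists, had 6.22 in CCI and 14.2 in sham (log2 ratio -1.19), and the one at the end of the transcript had 15.1 over 180 bases in CCI and 4.65 over 90 bases in sham (log2 ratio 1.70). Prpf4 had 35.8 and 11.3 in its 3′-UTR (log2 ratio 1.66).

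The Rbm genes, named for an RNA-binding motif, are of mixed function. Rbm33, an m6A-binding partner of the demethylase ALKBH5, had the strongest peak of the family. It spanned exons from exon 7 of 18, over 7 exonic blocks and 1230 bases in CCI and 6 blocks and 1200 bases in sham, at 273 in CCI and 78.7 in sham (log2 ratio 1.79). Other shared peaks had 12.5 and 5.92, 11.6 and 12.7, and 7.56 over 301 bases in CCI and 1.64 over 91 bases in sham. Of the 4 shared peaks 3 were more than 2-fold higher in CCI, and 1 was near equal. The peak at the start of Rbm33 went the other way, with 18.6 in sham and no partner in CCI.

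Rbm38, a target of p53 that acts on mRNA stability, had 1 peak in each list, in the 3′-UTR and of 2 exonic blocks, at 36.5 in CCI and 7.84 in sham (log2 ratio 2.22). Rbm20, known for the splicing of titin, had 67.2 over 928 bases in CCI and 26.7 over 629 bases in sham. This peak of 3 exonic blocks was annotated to exon 9 of 9 of a transcript and ran past its end. Rbm25 had 63.8 and 60.5 at its strongest, in the 3′-UTR, and 17.7 and 8.75 in a smaller 3′-UTR peak. Rbm8a, which is Y14 of the exon junction complex, had 24.9 and 12.1 at its start with the same borders (log2 ratio 1.04).

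Rbm48, a protein of the minor spliceosome, had 2.76 in CCI over 120 bases and 7.78 in sham over 328 bases (log2 ratio -1.50), the lowest of the family and the 1 Rbm peak at least 2-fold lower in CCI. Rbm10 and Rbm39 came next, at 16.3 and 31.6 and at 13.9 and 26.2, just inside the 2-fold limit. Rbm4b had 14 peaks over both lists, the most of the family, but several lay over nearly the same 3′-UTR bases. These peaks, and overlapping ones of Hnrnpd, Hnrnpk, Rbm14, Rbm42 and Srsf4, were counted as deposited, each as a peak. With a single shared peak kept where those of a gene overlapped, 171 of the 177 were left, with a median log2 ratio of 0.135, 20 at least 2-fold higher in CCI and 6 at least 2-fold lower. Rbm4 and Rbm4b are close paralogues between which reads may be shared. The peaks of Rbm4b had between 2.44 and 8.29 in CCI and between 1.47 and 8.06 in sham.

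The peaks of 1 list alone included a few of high fold enrichment. In sham the highest were the start of Rbm17 at 38.3, where GGAC lay within the peak, a 5′-UTR peak of Hnrnpll at 23.2, the start of Rbm33 at 18.6, the start of Snrpe at 18.6 and the 5′-UTR of Rbm12b1 at 16.3. In CCI they were Prpf40b at 20.8, a single-exon transcript near Hnrnpf at 12.5, and Rbm26, Rbm5 and Snrpg at 12 each. Of the sham peaks without a partner 8 of 23 lay in a 5′-UTR (34.8%, against 19.2% of all such sham peaks), and of the CCI peaks 4 of 20 (20.0%, against 13.3%).

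Several of these values recurred across the lists. The value of 12 in Rbm26, Rbm5 and Snrpg came with the same deposited log10 false discovery rate of -2.49, and 113 CCI peaks carried both values. The Rbm33 start peak shared its pair of values with 100 sham peaks in all, and the Hnrnpf peak with 81 CCI peaks. The Rbm17 peak shared its pair with 9, and those of Prpf40b and Hnrnpll were found a single time. The files give no read counts behind these values.

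Genes with peaks in a single list were few. In CCI alone there were 5 (5.56% of 90, against 4.77% of all genes), namely Prpf38a, Rbm22, Rbm24, Snrpg and Srsf2. In sham alone there was 1 (1.11%, against 8.45%), Snrpe, a protein of the Sm core. Each had 1 peak. Fold enrichment was 2.39 in Prpf38a, a protein of the spliceosome before its activation, 2.74 in Rbm22, which sits at the catalytic centre, and 10.4 in Rbm24, a splicing regulator of muscle. It was 12 in Snrpg, also of the Sm core, and 18.6 in Snrpe. The Rbm24 value came with a log10 false discovery rate of -2.02, and 124 CCI peaks carried both values. Among them was the CCI peak of a 3′-UTR pair of Rbm20, with a log2 ratio of 1.575. Srsf2 was set apart by name only, as given above.

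The differential table combines all 4 libraries, and only the presence, place and name of its rows were used. Of the 90 genes 31 had a row (34.4%, 25.4 to 44.7), against 25.3% of all genes, which lies just below that interval. The share was 37.3% (22 of 59) in the further genes of splicing and 32.7% (17 of 52) in the translation factor genes. By family, 9 of 18 Hnrnp genes had a row, 5 of 12 Snrp and Snrnp genes, 3 of 8 Sf3 genes, 4 of 11 Srsf genes, 4 of 13 Prpf genes and 6 of 28 Rbm genes. The Rbm genes thus had the highest median ratio and the lowest share of genes with a row. The 3′-UTR held 19 of the 45 rows (42.2%, 29.0 to 56.7), exons held 20 (44.4%) and the 5′-UTR 6 (13.3%), against 55.1%, 29.6% and 15.3% of all rows.

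A peak was present in both lists under 41 of the 45 rows (91.1%, against 89.2% of all rows), and 40 rows overlapped a shared pair. Those pairs were all higher in CCI in 23 rows (57.5%), all lower in 16 (40.0%), and went both ways or were equal in 1. Over all 4229 rows that overlapped a shared pair, they were all higher in 42.6% and all lower in 54.6%. Rbm33 and Snrnp70 had the most rows, 4 each. In Rbm33 they lay over the 4 shared peaks given above. In Snrnp70 1 row lay over the start, under a sham peak alone, and the other 3 over pairs with log2 ratios of 0.07, 0.44 and 0.50.

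Hnrnpu, also known as scaffold attachment factor A, had 3 rows, over pairs with log2 ratios of -0.38, -0.43 and -0.50. Its strongest peak lay in exon 1 of 17, at 9.03 in CCI and 12.8 in sham, and its other 2 shared peaks, with no row, were higher in CCI. Rbm25 had 3 rows, over pairs at 0.96, 1.02 and 0.08. Hnrnpul2 had 3 rows, of which 1 lay over a 5′-UTR pair at 11.6 in CCI and 15.6 in sham, 1 over a 3′-UTR pair at 7.98 and 4.66, and 1 over an exonic stretch without a shared pair. A row was thus found over ratios on both sides of 0 and over ratios close to 0, and it was missing for Rbm38, for Prpf19 and for Sf3a2.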

How the data were processed

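The deposited files were a CCI peak list, a sham peak list and a table of differential peaks. Per the submitters' processing notes, reads were handled with fastp, HISAT2, HOMER and ChIPseeker on GRCm38. The methods of the paper name Cutadapt, bowtie, MACS2 and ChIPseeker, and the column names are those of exomePeak. The fold enrichment deposited for each peak is a ratio of IP over input made by the authors. The deposited p-value of a peak tests its IP reads against its input reads. The log10 p-values and false discovery rates deposited by the authors were handled as a score, since some are minus infinity. The differential table also holds the authors' fold change, p-value and false discovery rate of CCI against sham, which were not used. Read counts per library are not in these tables, so the depth is unknown here and fold enrichments have no interval.

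Peaks were compared by exonic blocks on the same chromosome, with at least 1 shared base. No strand was used, although the plan for the comparison named it, because the tables give no strand for peak calling. A shared peak is a pair in which each is the other's best partner by shared over joined bases, and a ratio of at least 2-fold was counted. Regions, exons and gene names are the authors' annotation. Shares have 95% Wilson intervals, which cover counting error only. Pairing was tested on simulated peaks that lay far apart, each with at most 1 possible partner. Overlapping, split or merged peaks were not simulated. Sequences came from RefSeq windows (GRCm38.p6) of 250 bases before and 50 after a start. The members and all gene lists were chosen with earlier results of these data known.

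Genes were named by rule: per family, the gene with the most peaks and the highest peak of each list; the 5 highest and 5 lowest ratios with fold enrichment of at least 2 in both lists; the 5 highest peaks of each list without a partner; the 5 genes with the most differential rows; genes of 1 list only; and all Srsf genes. Further genes were named after their values were seen. Alternatives were an overlap of 50% of both peaks, a minimum fold enrichment of 2, a false discovery rate below 0.01, 1.5-fold, centring, counting by gene, peaks outside other genes and, added after seeing the data, pairs with the same borders and a single shared peak kept (the one with the most CCI bases) where those of a gene overlap. Figures were drawn with matplotlib 3.10.9; all else ran in Python 3.11.15 with pandas 2.3.3, numpy 2.4.6 and scipy 1.17.1.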

Additional observations from a re-analysis of the deposited data

How the results depend on the processing

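Of 35 alternatives, 26 left the value within tolerance (a share within its 95% interval, a log2 ratio or the log2 of a fold enrichment within 0.1, a count within 1.5-fold), 9 moved it further and 0 changed the sign of a log2 ratio. When partners had to overlap by 50% of each peak, the share of peaks with a partner was 84.5% in CCI and 82.9% in sham, and by gene it was 94.4% and 98.8%, as the stricter and looser rules bring by construction. At 1.5-fold in place of 2-fold, 40 shared peaks were higher in CCI (22.6%, against 18.8% of all shared peaks) and 16 lower (9.04%, against 16.4%). The median fold enrichment of the strongest peak per gene was 9.41 in CCI and 11.6 in sham, which puts sham above CCI, the reverse of the order over all peaks; the cause was not tested. Counting only rows in a 3′-UTR left 16 genes with a differential row. The median log2 ratio lay between 0.109 and 0.155 under all of its 7 alternatives. No paired analysis was possible because there was 1 IP and 1 input library a group. The spread between animals was not measured, so a ratio of 2-fold or more in a single pair of libraries has no error, and the depth behind short peaks found in 1 list is unknown.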

Other observations

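A further list of 64 genes of splicing that do not carry the family names (helicases, U2 auxiliary factors, LSm proteins, SR-related proteins and the kinases of SR proteins) was set beside the splicing factor genes. Of these 55 had peaks in both lists, 1 in CCI only (Bud31), 3 in sham only (Lsm3, Ptbp2 and U2af1l4) and 5 in neither (Clk1, Clk4, Lsm5, Lsm6 and Lsm8). Their 157 shared peaks had a median log2 ratio of 0.09, with 58.0% higher in CCI, against 60.5% for the splicing factor genes and 51.8% over all shared peaks. The highest fold enrichments were those of Srrm1, a coactivator of splicing, at 149 in CCI and 203 in sham, and of Clk2, a kinase of SR proteins, at 107 and 87.2. Tra2b, an SR-like activator, had 1 peak in each list, at 35.4 in CCI and 8.83 in sham (log2 ratio 2.00). Tra2a, its paralogue, had 23.1 and 16.6 (log2 ratio 0.48). The 2 shared peaks of Xab2 were both more than 2-fold higher in CCI (log2 ratios 1.11 and 1.31), and both shared peaks of Eftud2, the GTPase of the U5 snRNP, were lower (-0.72 and -1.25). Luc7l3, a U1-associated protein, held a shared peak at -2.85 and another at 0.03. The extremes of the list also held a shared peak of Clk2 at 3.81, peaks of Ptbp1 at 2.34 and -1.65, and one of Slu7 at -2.49. Each of these values rests on 1 pair of libraries per group.

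The translation factor genes had a median log2 ratio of 0.154 over 100 shared peaks and the ribosomal protein genes 0.06 over 43, so the value of 0.135 of the splicing factor genes lay between them.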
